A study of Mus musculus with 16 samples.

Results

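The genes described here are 33 genes of cholesterol (sterol) and fatty acid synthesis, followed through siRNA knockdown of 3 transcription factors in cultured mouse spermatogonial stem cells. They were taken from a list of named genes in 3 classes. The first was 17 enzymes of the sterol pathway, from Acat2 and Hmgcs1 at its entry to Dhcr7 at its end. The second was 6 regulators and carriers (Insig1, Insig2, Scap, Srebf1, Srebf2 and Stard4), and the third 10 genes of fatty acid synthesis, elongation, desaturation and activation. Each gene was read from the probe set with its highest mean over the 16 arrays. Acat2 had no probe set paired with it alone and is not analysed here. The other 32 genes were all bright enough to be tested, among 11145 tested genes.

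The cells came from C57BL/6 cultures founded on Thy1+ germ cells and kept in defined medium without serum. The medium of all groups held the same growth factors: 20 ng/ml of GDNF, 150 ng/ml of its receptor GFRA1 and 1 ng/ml of FGF2. Cells were treated for 30 h with siRNA to Etv5, an ETS family factor, to Bcl6b, a zinc finger factor of the BTB family, or to Pou3f1, a POU domain factor. Control cells received a negative control siRNA. Each of the 4 groups holds 4 arrays, and no label says that these were separate cultures. Each p-value below therefore speaks of the spread among arrays of a group, which may be technical. The knockdown was transient and was measured in bulk RNA, in which fewer cells of a type and less RNA per cell cannot be told apart.

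Sterols and fatty acids are both built from acetyl-CoA in the cytosol. The genes for both are driven by the SREBP factors, encoded by Srebf1 and Srebf2, which are made as membrane proteins of the endoplasmic reticulum. When sterols are low, Scap escorts them to the Golgi, where proteases free the part that enters the nucleus. When sterols are high, the Insig proteins hold Scap back, so that sterol enzyme genes usually rise and fall together. SREBP-2 acts mainly on sterol genes and SREBP-1c mainly on fatty acid genes. Growing cells need both products for membranes, and in the testis the sterol pathway also yields meiosis-activating sterols.

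One array stood apart before any comparison. Bcl6b knockdown replicate 1 correlated with the other arrays at a mean of 0.975, against 0.996 to 0.997 for the other 15. Its 3′ probe set of Gapdh exceeded the 5′ one by 1.03 on the log2 scale, against -0.53 to -0.45 elsewhere, and the same gap for Actb was 3.08 against 0.62 to 0.76. The median residual SD of a gene was 0.134 with all 16 arrays and 0.0841 without it, so counts and calls are given both ways. Differences between groups other than Bcl6b knockdown are the same in both fits and only their errors change. A value below with no fit named is from the 15 arrays, and Bcl6b differences that turned sign or moved markedly are also given with 16. The targets were lower in their own knockdown with 16 arrays, Etv5 by -1.49 (adjusted p = 0.00115), Bcl6b by -1.01 (adjusted p = 0.000167) and Pou3f1 by -0.68 (adjusted p = 0.00103). Bcl6b was as low in Etv5 knockdown, at 608 to 899 intensity units, as in Bcl6b knockdown, at 611 to 791, against 1341 to 1526 in control (Etv5 knockdown against control -1.10, adjusted p = 6.21e-05 with 16 arrays). These 2 knockdowns therefore share a low Bcl6b level. All 10 markers of undifferentiated spermatogonia lay above the array median on all 16 arrays. Their summed intensity was 35374 to 35906 in control and 31804.5 to 33480 in Etv5 knockdown. In Bcl6b knockdown it was 31269 to 36416 and in Pou3f1 knockdown 35365 to 38163. That list includes Etv5 itself. Without Bcl6b knockdown replicate 1, Id4 (-0.34) and Sall4 (-0.18) were also called lower in Etv5 knockdown and Zbtb16 (0.25) higher. Ret was called higher in Bcl6b (0.30) and Pou3f1 knockdown (0.38), and Zbtb16 in Pou3f1 knockdown (0.14). Between Bcl6b and Pou3f1 knockdown Lin28a alone of that list was called, lower in Bcl6b knockdown (-0.22). All 9 measured fibroblast and feeder markers also lay above the median on all 16 arrays. Their summed intensity was 151926 to 153722 in control, 160359 to 167239 in Etv5, 153281 to 162867 in Bcl6b and 155059 to 161530 in Pou3f1 knockdown. Of that list, Vim alone passed with 16 arrays, in all 3 knockdowns (0.33, 0.29 and 0.35, in the order Etv5, Bcl6b, Pou3f1). The list medians were then 0.035, -0.036 and -0.034 in the same order. Without Bcl6b knockdown replicate 1, Vim and Postn were called higher and Fn1 (-0.12) and Col1a1 (-0.23) lower in Pou3f1 knockdown. In that fit Vim, Postn and Pdgfrb were called higher in Etv5 knockdown and Vim and Pdgfrb in Bcl6b knockdown, and none lower. Of the Leydig (steroid producing) list, 3 of 4 measured markers lay above the median on all 16 arrays and Cyp17a1 on none, with a summed intensity of 4608 to 4786 in control, 4412 to 4947 in Etv5, 3797 to 4702 in Bcl6b and 4394 to 4735 in Pou3f1 knockdown. Its member Star was lower in Bcl6b knockdown by -0.21 (adjusted p = 0.0129) and Hsd3b1 higher in Pou3f1 knockdown by 0.30 (adjusted p = 0.027), both called only without Bcl6b knockdown replicate 1. Of 6 macrophage markers 4 lay above the median on all arrays and Adgre1 on none, with summed intensities of 331 to 381 in control, 309 to 379 in Etv5, 359 to 425 in Bcl6b and 359.9 to 435 in Pou3f1 knockdown. Mrc1 fell in Etv5 knockdown by -1.31 (adjusted p = 0.00189 with 16 arrays). It was the only call among 5 tested macrophage markers, whose list median in Etv5 knockdown was 0.11. No fat cell marker lay above the median on all arrays (Adipoq, Pparg and Cidec on none), and of 7 Sertoli markers 3 did and 4 (Wt1, Gata4, Amh and Cldn11) did on none. The summed intensity of the Sertoli list was 2331 to 2457 in control and 2110 to 2180 in Etv5 knockdown. In Bcl6b knockdown it was 2110 to 2315 and in Pou3f1 knockdown 2042 to 2399. Of 3 tested Sertoli markers Rhox5 alone was called, lower in Etv5 knockdown (-0.15), and only without Bcl6b knockdown replicate 1. The part of any of these cells in the results below was not tested.

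Across the pathway the shifts were small. With all 16 arrays, none of the 32 genes passed an adjusted p under 0.05 in limma, adjusted over all tested genes, in any of the 4 comparisons. An unadjusted p under 0.05 was reached by 0 of 32 in Etv5 knockdown, 5 in Bcl6b knockdown, 1 in Pou3f1 knockdown and 7 in Bcl6b against Pou3f1 knockdown, where the shares over all tested genes were 11%, 19.6%, 12.2% and 15.6%. By the adjusted p, 2.09% were called in Etv5 knockdown, 3.21% in Bcl6b knockdown, 2.25% in Pou3f1 knockdown and 2.18% between the last 2. Without Bcl6b knockdown replicate 1, 6 of the 32 genes were called in at least 1 comparison. These were the regulator Insig2, the sterol enzymes Hmgcs1, Fdft1 and Sqle, and the fatty acid genes Fasn and Fads1. The counts were then 2 of 32 in Etv5 knockdown against 9.52% of all tested genes, and 3 of 32 in Bcl6b knockdown against 10.9%. They were 2 of 32 in Pou3f1 knockdown against 11.4%, and 2 of 32 between Bcl6b and Pou3f1 knockdown against 5.11%. These shares are near or below those of all tested genes.

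**Figure D1:**
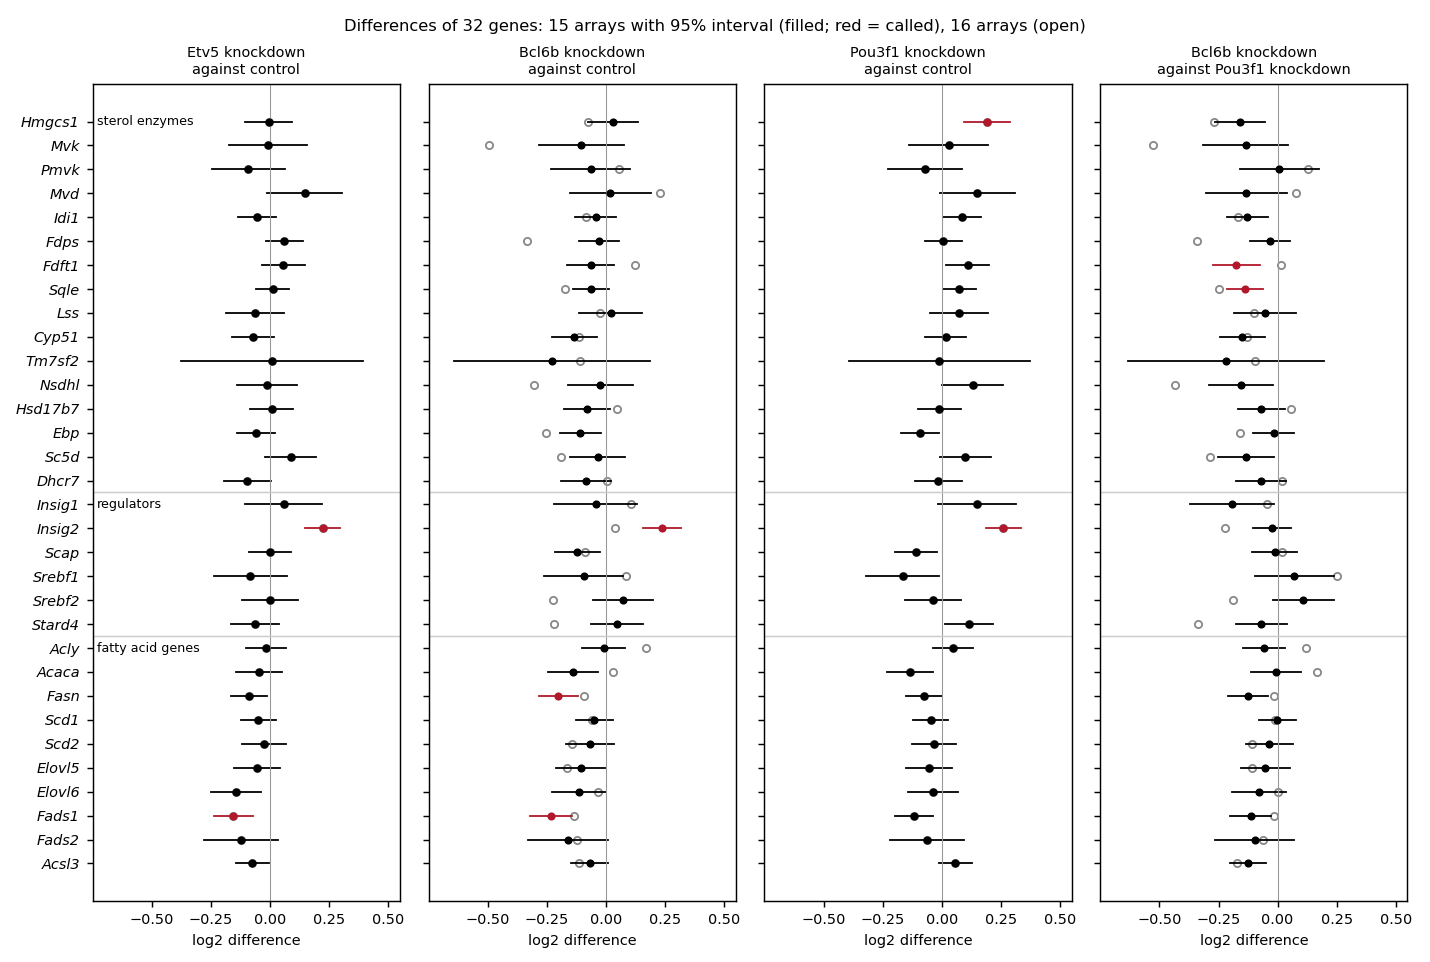
Fitted log2 differences of the 32 genes (rows, by class) in the 4 comparisons (panels); filled points are the fit of 15 arrays with its 95% interval, red where the adjusted p was under 0.05, and open points the fit of all 16 arrays. Insig2 is red and to the right of 0 in all 3 knockdowns, Fads1 is red and to the left in Etv5 and Bcl6b knockdown, and the open points of the Bcl6b panels lie far from the filled ones for Mvk, Fdps and Nsdhl.

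RefSeq promoter windows, of 250 bases before to 50 after each start, were at hand for 26 of the 33 genes. Of the 6 genes called without that array, the table held Hmgcs1, Insig2 and Fasn. Their 250 bases before the start are shown, so that the matches counted below can be seen in called genes. Capitals mark CCAAT on either strand (ATTGG on the strand shown), the box bound by NF-Y, and the sterol response letters TCACNCCAC. The sequences run 5′ to 3′ on the gene's strand, in build GRCm38.p6. Hmgcs1 lies at chr13:119690101-119690350, plus strand, the first of 3 Insig2 windows at chr1:121332590-121332839, minus strand, and Fasn at chr11:120824548-120824797, minus strand.
Hmgcs1: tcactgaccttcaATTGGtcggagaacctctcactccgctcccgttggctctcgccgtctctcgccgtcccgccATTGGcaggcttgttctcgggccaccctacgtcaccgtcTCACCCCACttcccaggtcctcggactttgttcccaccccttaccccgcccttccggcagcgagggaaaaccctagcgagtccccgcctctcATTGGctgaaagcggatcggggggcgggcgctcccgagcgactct
Insig2: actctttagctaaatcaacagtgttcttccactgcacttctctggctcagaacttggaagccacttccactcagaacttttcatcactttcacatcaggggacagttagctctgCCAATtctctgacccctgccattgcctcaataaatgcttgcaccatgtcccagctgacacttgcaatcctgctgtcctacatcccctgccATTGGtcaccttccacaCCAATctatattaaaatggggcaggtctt
Fasn: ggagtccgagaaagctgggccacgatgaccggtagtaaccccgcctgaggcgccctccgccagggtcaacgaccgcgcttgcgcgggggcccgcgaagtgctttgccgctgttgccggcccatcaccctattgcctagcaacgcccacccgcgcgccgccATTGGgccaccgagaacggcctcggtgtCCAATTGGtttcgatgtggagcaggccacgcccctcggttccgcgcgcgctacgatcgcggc
The single TCACNCCAC match among the 26 genes was that of Hmgcs1, starting at -137 from the start, beside 3 CCAAT matches before the start and 1 after it. Insig2 had 3 CCAAT matches in the window shown and none in its other 2 windows. Fasn had 3, of which a pair shares bases. Over both strands of the whole windows, TCACNCCAC was in 388 of 27025 genes of the table (1.44%) and in 1.41% of the 9086 tested genes that the table holds. CCAAT was in 21 of the 26 genes (80.8%), against 41.1% of all genes in the table and 43.6% of the tested ones. It was in 13 of 14 sterol enzymes, in 4 of 5 regulators and carriers and in 4 of 7 fatty acid genes. The GC box GGGCGG was also in 21 of 26, against 38.2% of all genes and 71% of the tested ones, and in 3 of 7 fatty acid genes. The E-box CACGTG was in 6 of 26 against 8.09% and 12.2%, and TATAAA in 1 of 26 against 15.7% and 8.51%. A match is a string of letters and no measure of binding.

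**Figure D2:**
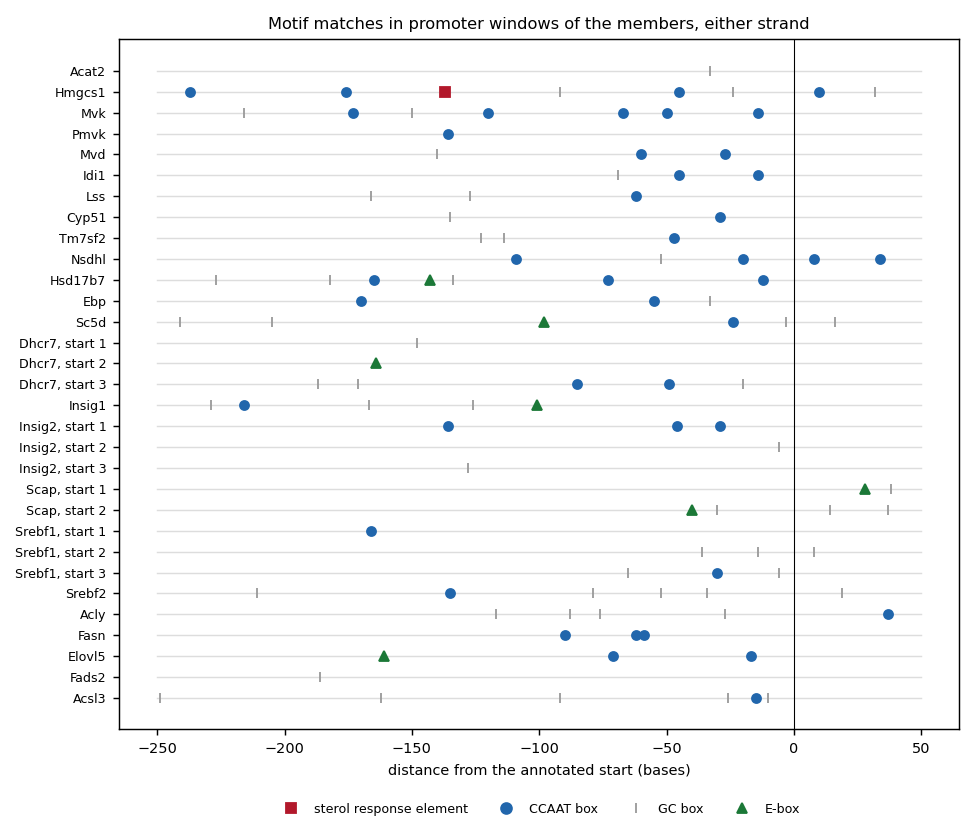
Matches of 4 motifs on either strand (symbols) in the RefSeq promoter windows with at least 1 match (rows, a row for each start of a gene), by the distance of the match from the annotated start in bases (x axis, start at 0). Blue points (CCAAT) stand in 13 of 14 sterol enzymes, and the red square (TCACNCCAC) in Hmgcs1 alone.

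The 3 sterol enzymes called without Bcl6b knockdown replicate 1 were Hmgcs1, higher in Pou3f1 knockdown than in control, and Fdft1 and Sqle, lower in Bcl6b than in Pou3f1 knockdown. Hmgcs1, the synthase that makes HMG-CoA, read 10205, 10253, 10150.2 and 10781 intensity units on the control arrays, replicates 1 to 4. In Pou3f1 knockdown it read 10775, 11605, 11951 and 13028, in Etv5 knockdown 10299.5, 10744, 10151 and 10073 and in Bcl6b knockdown 7844, 11138, 9999 and 10609. Of the 4 Pou3f1 arrays 3 lay above every control array and the lowest lay just below the highest control array, while Bcl6b knockdown replicate 1 was lower than the other 15 arrays. The mean was 10347 ± 292 (SD, n = 4) in control and 11839.7 ± 933 (SD, n = 4) in Pou3f1 knockdown. Without Bcl6b knockdown replicate 1, Hmgcs1 rose in Pou3f1 knockdown by 0.19 ± 0.0469 (SE) on the log2 scale, 1.14-fold with a 95% interval of 1.07 to 1.22 (adjusted p = 0.0126). The same difference had, with 16 arrays, an adjusted p of 0.37. In Etv5 knockdown its interval was -0.10 to 0.094 and in Bcl6b knockdown -0.075 to 0.14, where the difference with 16 arrays was -0.076. Between Bcl6b and Pou3f1 knockdown it differed by -0.16 (adjusted p = 0.0799; -0.27 with 16 arrays, adjusted p = 0.14). The replicate number as a block brought it under the threshold in the fit of 15 arrays.

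Fdft1 encodes squalene synthase, the first enzyme given over to sterols, and read 3835, 3907, 3870.00 and 4255 in control. It read 4542, 4199.5, 4263 and 4115 in Pou3f1, 4192, 4188, 3997 and 4119 in Etv5 and 6381, 3539, 3851 and 3995 in Bcl6b knockdown. Its direction between Bcl6b and Pou3f1 knockdown turned on 1 array, since Bcl6b knockdown replicate 1 was the highest of all 16 and the other 3 Bcl6b arrays lay below all 4 Pou3f1 arrays. Means were 3795 ± 233 (SD, n = 3) in Bcl6b knockdown without that array, 4442 ± 1307 (SD, n = 4) with it and 4279.7 ± 185 (SD, n = 4) in Pou3f1 knockdown. Without it Fdft1 was lower in Bcl6b than in Pou3f1 knockdown by -0.17 ± 0.0466 (SE; adjusted p = 0.0357), and with it the difference was 0.014 (adjusted p = 0.958). Leaving out 1 more of the 15 arrays kept the call in 10 of 15 fits, with differences from -0.21 to -0.12. With the replicate number as a block the difference was -0.17 (adjusted p = 0.0657), and with the mean over its probe sets -0.070 (adjusted p = 0.168). That mean includes probe sets too dim to test, which draw it toward 0, and also a second tested probe set. The part of each in the smaller difference was not tested. In a fit of all tested probe sets, another of Fdft1 (1448130_at) gave -0.085 without Bcl6b knockdown replicate 1 (adjusted p = 0.336). With 16 arrays it gave -0.20 (adjusted p = 0.284), so its sign did not turn.

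Sqle, the squalene epoxidase and a slow step of the pathway, read 2954, 2923, 2912 and 2944 in Pou3f1 knockdown, within a narrow band. It read 2667, 2843, 2733 and 2903 in control, 2796, 2739, 2815 and 2884 in Etv5 knockdown and 1958, 2577, 2680.1 and 2750.5 in Bcl6b knockdown. All 4 Pou3f1 arrays lay above all other arrays, and all 4 Bcl6b arrays lay below them, with replicate 1 the lowest. The means were 2933 ± 19.1 (SD, n = 4) in Pou3f1 knockdown, 2786 ± 106 (SD, n = 4) in control and 2669 ± 87.3 (SD, n = 3) in Bcl6b knockdown without replicate 1. Sqle was lower in Bcl6b than in Pou3f1 knockdown by -0.14 ± 0.0363 (SE) without that array (adjusted p = 0.0348), a ratio of 0.91. With 16 arrays the difference was -0.25 (adjusted p = 0.143). Leaving out 1 more of the 15 arrays kept this call in 10 of 15 fits too. Against control it differed by 0.075 in Pou3f1 knockdown (adjusted p = 0.161) and by -0.062 in Bcl6b knockdown (adjusted p = 0.292; -0.17 with 16 arrays).

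**Figure D3:**
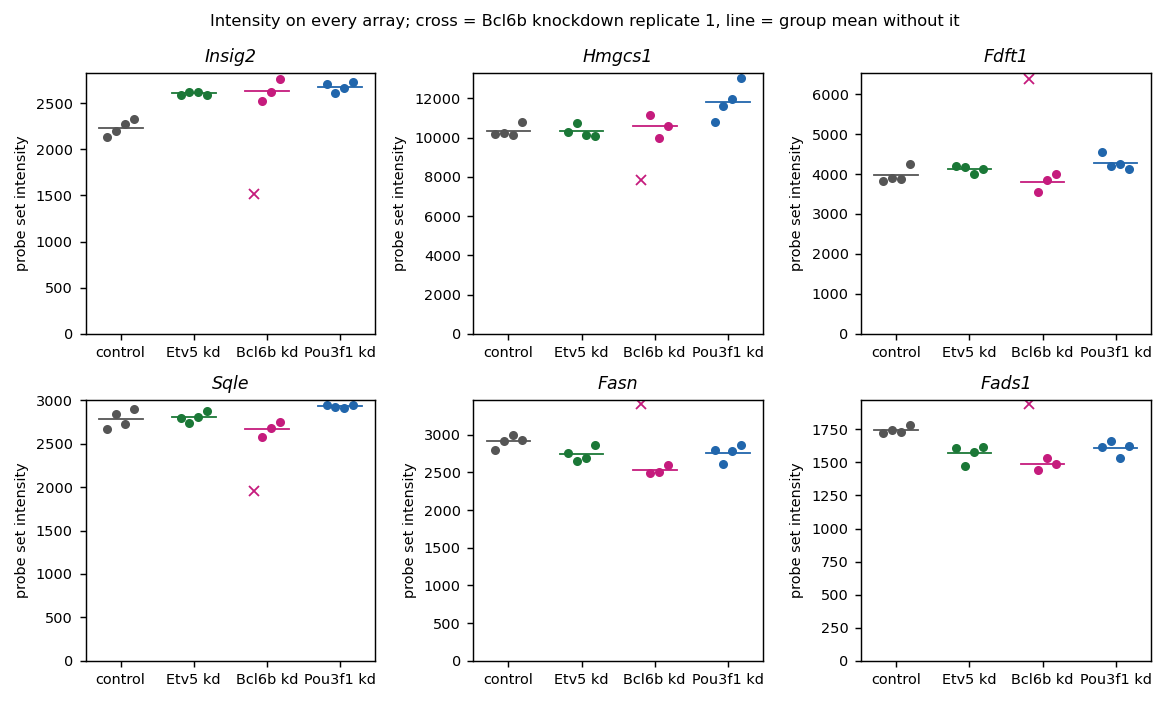
Intensity (linear scale, arbitrary units) of the 6 called genes on each array, by group; each point is 1 array, the cross is Bcl6b knockdown replicate 1, and the line is the group mean without it (kd, knockdown). The control arrays of Insig2 (2133 to 2326) lie below every other array but the cross, and those of Fads1 (1720.3 to 1782) above every other array but the cross.

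The other 13 measured sterol enzymes did not pass in any comparison, with or without that array. Without it, the differences between Bcl6b and Pou3f1 knockdown were below 0 for 15 of 16 sterol enzymes, with a median of -0.13, where all tested genes had a median of -0.022 and 59.8% below 0. The count with 16 arrays was 11 of 16 below 0 and a median of -0.14, beside a median of 0.0057 over all genes. Groups did not overlap, with Bcl6b lower, for 6 of 16 sterol enzymes without that array (Idi1, Fdft1, Sqle, Cyp51, Nsdhl and Hsd17b7), against 9.46% of all tested genes. With it, that held for 3 of 16 (Idi1, Sqle and Nsdhl), against 4.62%. Cyp51, the lanosterol demethylase, read 2723, 2569 and 2602 on Bcl6b arrays 2 to 4 and 2893, 2770.4, 2894 and 3126 on the Pou3f1 arrays. Its difference was -0.15 (interval -0.24 to -0.055, adjusted p = 0.0645). Idi1, which isomerises isopentenyl diphosphate, read 3929, 3684 and 3914 and 4167, 4018, 4196 and 4410.1 on the same arrays, a difference of -0.13 (adjusted p = 0.0866). Nsdhl, a decarboxylase that removes sterol methyl groups, read 1571, 1612 and 1692 and 1835, 1759, 1754 and 1887, a difference of -0.15 (adjusted p = 0.215; -0.43 with 16 arrays, adjusted p = 0.287). For each of these 3 enzymes the 3 Bcl6b arrays lay below all 4 Pou3f1 arrays, yet no adjusted p was under 0.05. Pmvk, a kinase of the mevalonate steps, was the only one of the 16 above 0 (interval -0.16 to 0.18), and with 16 arrays it differed by 0.13 (adjusted p = 0.516).

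Against control, the sterol enzymes had no common direction in Etv5 knockdown, with 7 of 16 above 0 and a median of -0.0058, while all tested genes had a median of -0.026. In Pou3f1 knockdown 11 of 16 were above 0 with a median of 0.052, beside -0.024 over all genes with 59.1% below 0. In Bcl6b knockdown 13 of 16 were below 0 without replicate 1, with a median of -0.063 beside -0.042 over all genes, of which 65.8% were below 0. It was, with all 16 arrays, 11 of 16 with a median of -0.096 beside -0.010. Both knockdowns were set against the same 4 control arrays. The steps before squalene were Mvk, Mvd, Idi1 and Fdps beside those named. Mvk, the mevalonate kinase, ranged from 189.7 to 207 in control and from 60.8 to 195 in Bcl6b knockdown, where replicate 1 was the lowest. Mvd, the decarboxylase after it, differed by 0.15 in Pou3f1 knockdown (interval -0.0082 to 0.31), and Fdps, which makes farnesyl diphosphate, by 0.0063 (interval -0.072 to 0.084). After squalene, Lss, the lanosterol synthase, read 789, 757, 756 and 764 in Pou3f1 knockdown and 712, 751, 722 and 727 in control, so the groups did not overlap (difference 0.074, adjusted p = 0.451). Sqle and Lss were the 2 of 16 sterol enzymes with all Pou3f1 arrays above all control arrays, against 6.4% of all tested genes. Ebp, the sterol isomerase, differed by -0.11 in Bcl6b knockdown without replicate 1 (adjusted p = 0.108) and by -0.25 with it (adjusted p = 0.187). Dhcr7, which makes cholesterol itself, read 791, 795 and 792 on Bcl6b arrays 2 to 4, all below the control range of 814 to 852, while replicate 1 read 1016. Cyp51 was the other sterol enzyme whose 3 Bcl6b arrays lay below all control arrays (-0.13, adjusted p = 0.0674), so that this held for 2 of 16, against 19.3% of all tested genes. The dim gene Tm7sf2, a sterol reductase, had an interval of -0.64 to 0.19 in Bcl6b knockdown without replicate 1, and with 16 arrays the interval of Mvk was -1.05 to 0.055.

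**Figure D4:**
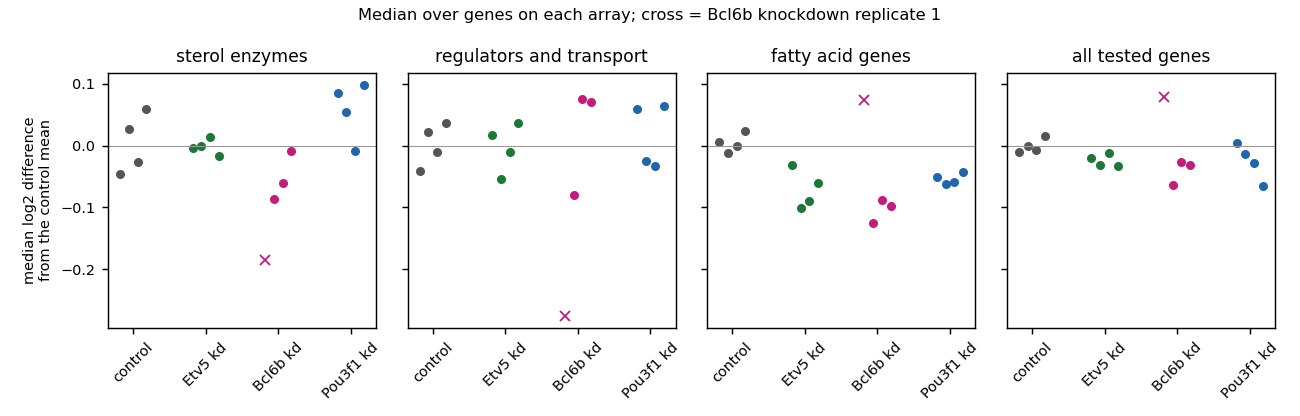
Median deviation from the control mean (log2) on each array, for the 16 sterol enzymes, the 6 regulators and carriers, the 10 fatty acid genes and all tested genes; each point is 1 array, by group, and the cross is Bcl6b knockdown replicate 1 (kd, knockdown). The fatty acid medians lie between -0.126 and -0.032 on all knockdown arrays but Bcl6b knockdown replicate 1, at 0.074, and 3 of 4 Pou3f1 arrays have sterol medians of 0.054 to 0.098.

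Insig2, the anchor that holds Scap in the endoplasmic reticulum, was higher in all 3 knockdowns once Bcl6b knockdown replicate 1 was left out. It read 2133, 2197, 2278 and 2326 in control. In Etv5 knockdown it read 2593, 2618, 2626 and 2591, in Bcl6b knockdown 1520.2, 2521, 2623 and 2762 and in Pou3f1 knockdown 2711, 2605, 2668 and 2723. Every knockdown array lay above every control array except Bcl6b knockdown replicate 1, which was the lowest of all 16. The control mean was 2234 ± 85.7 (SD, n = 4), and the knockdown means were 2607 ± 17.4 (SD, n = 4) for Etv5, 2635 ± 121 (SD, n = 3) for Bcl6b without that array and 2677 ± 53.3 (SD, n = 4) for Pou3f1. Without that array Insig2 rose 1.17-fold in Etv5 knockdown (log2 0.22 ± 0.0356, adjusted p = 0.000491). It rose 1.18-fold in Bcl6b knockdown (log2 0.24 ± 0.0384, adjusted p = 0.000568) and 1.2-fold in Pou3f1 knockdown (log2 0.26 ± 0.0356, adjusted p = 8.93e-05). With all 16 arrays the adjusted p-values were 0.598, 0.883 and 0.454, and the Bcl6b difference was 0.04. Each call without that array was kept in 15 of 15 fits that left out 1 more. The 3 comparisons share their 4 control arrays, so that a low reading of the control arrays and a rise in each knockdown cannot be told apart. Between Bcl6b and Pou3f1 knockdown the interval was -0.10 to 0.057, and the difference with 16 arrays was -0.22 (adjusted p = 0.389).

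The other regulators and carriers did not pass. Insig1, the second anchor and itself a classic SREBP target, ranged from 802 to 959 in control and from 856 to 1138 in Pou3f1 knockdown (difference 0.15, interval -0.013 to 0.31). Between Bcl6b and Pou3f1 knockdown it differed by -0.19 (adjusted p = 0.232) without replicate 1 and by -0.043 with it (adjusted p = 0.861), and the groups overlapped. Scap, the escort, read 2621, 2814, 2750.2 and 2807 in control and 2751, 2366, 2614 and 2612 in Bcl6b knockdown. It read 2902, 2635, 2667 and 2789 in Etv5 and 2606, 2638, 2496 and 2461 in Pou3f1 knockdown. The lowest 3 Bcl6b readings, those of replicates 2 to 4, lay below all control readings, as held for 19.3% of all tested genes. The Pou3f1 range overlapped that of control. Means were 2748 ± 89.3 (SD, n = 4) in control and 2531 ± 143 (SD, n = 3) in Bcl6b knockdown without replicate 1, a difference of -0.12 (adjusted p = 0.101). Srebf1, which encodes SREBP-1, read 953, 880.02, 913 and 815 in Pou3f1 knockdown, all below the control range of 954 to 1034 (difference -0.16, adjusted p = 0.16). The gap was narrow (953.3 against 953.8), and 1301 of 11145 tested genes had all Pou3f1 arrays below all control arrays. Srebf2, which encodes SREBP-2, ranged from 1141 to 1207 in control and from 1129 to 1148 in Pou3f1 knockdown. On Bcl6b arrays 2 to 4 Srebf2 read 1173, 1281 and 1244, all above the Pou3f1 range, and on replicate 1 540.4. Without replicate 1, 762 of 11145 tested genes had all Bcl6b arrays above all Pou3f1 arrays. The difference of Srebf2 between these knockdowns without replicate 1 was 0.11 (adjusted p = 0.376), and with it the sign turned (-0.19, adjusted p = 0.595). A second probe set of Srebf2 gave -0.05 without that array and -0.083 with it, neither called, so the direction of Srebf2 was not settled. Stard4, a cytosolic sterol carrier, differed by 0.12 in Pou3f1 knockdown (interval 0.016 to 0.22).

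On the chosen probe sets, most differences of the fatty acid genes were below 0 in each knockdown. In Etv5 knockdown 10 of 10 differences were below 0 with a median of -0.064, beside -0.026 over all tested genes, of which 60.5% were below 0. In Bcl6b knockdown 10 of 10 were below 0 without replicate 1 (median -0.11, all genes -0.042) and 8 of 10 with it (median -0.10, all genes -0.010). In Pou3f1 knockdown 8 of 10 were below 0 with a median of -0.050, beside -0.024. With the mean over probe sets that Pou3f1 median was -0.010, beside -0.016 over all genes, and so not below it. In Bcl6b knockdown such means gave medians of -0.047 without replicate 1 (all genes -0.032) and -0.091 with it (all genes -0.020). In Etv5 knockdown they gave a median of -0.072 beside -0.021. Those means include probe sets too dim to test for Acly and Fads1, which draw differences toward 0. Other tested probe sets enter them too. In Pou3f1 knockdown these were above 0 for Acaca, Scd1 and Scd2, where the chosen ones were below 0, and above 0 for Acsl3. For Acly, Elovl5 and Elovl6 they were below 0, and for Fads2 on both sides. The counts of differences below 0 rest on 1 set of 4 control arrays, and most of the single differences were within the spread of their groups.

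Fads1, a desaturase of polyunsaturated fatty acids, carried the largest called fall. It read 1720.3, 1743, 1733 and 1782 in control, 1606, 1473, 1580.1 and 1618 in Etv5, 1945, 1443, 1532 and 1485 in Bcl6b and 1617, 1663, 1531 and 1624 in Pou3f1 knockdown. All knockdown arrays lay below all control arrays except Bcl6b knockdown replicate 1, the highest of the 16. The control mean was 1745 ± 26.7 (SD, n = 4), beside 1569 ± 65.8 (SD, n = 4) in Etv5 and 1486 ± 44.5 (SD, n = 3) in Bcl6b knockdown without that array. Without that array Fads1 fell in Bcl6b knockdown, with a difference of -0.23 ± 0.0416 (ratio 0.852, interval 0.802 to 0.905, adjusted p = 0.00149). It also fell in Etv5 knockdown (-0.15 ± 0.0385, adjusted p = 0.0166), and the Pou3f1 value was -0.12 (adjusted p = 0.0568). With all 16 arrays the adjusted p-values were 0.325 in Bcl6b and 0.474 in Etv5 knockdown, and the Bcl6b difference was -0.13. Leaving out 1 more of the 15 arrays kept the Bcl6b call in 15 of 15 fits and the Etv5 call in 13 of 15. The Etv5 call was also lost with median centring (-0.16, adjusted p = 0.0535) and with the mean over probe sets (-0.11, adjusted p = 0.0844). That mean includes a probe set of Fads1 too dim to test (3.34 units in control), which draws it toward 0. Its loss of the call therefore cannot weigh on the Etv5 difference. The partner desaturase Fads2 differed by -0.16 in Bcl6b knockdown (interval -0.33 to 0.0081) and by -0.12 in Etv5 knockdown (interval -0.28 to 0.035).

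Fasn, the synthase that builds palmitate, read 2794, 2916, 3003 and 2927 in control and 3412, 2495, 2507 and 2596 in Bcl6b knockdown. It read 2753, 2656, 2686 and 2867 in Etv5 and 2801, 2612, 2781 and 2857 in Pou3f1 knockdown. Bcl6b arrays 2 to 4 lay below the other 13 arrays, and replicate 1 above them all. The means were 2910.04 ± 86.2 (SD, n = 4) in control and 2533 ± 54.9 (SD, n = 3) in Bcl6b knockdown without replicate 1. Fasn fell in Bcl6b knockdown without that array, with a difference of -0.20 ± 0.0396 (ratio 0.871, adjusted p = 0.00331), and this call was kept in 15 of 15 fits that left out 1 more array. The difference with 16 arrays was -0.092 (adjusted p = 0.516). Against Pou3f1 knockdown the 3 Bcl6b arrays differed by -0.12 (adjusted p = 0.0804), and with 16 arrays the value was -0.017.

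The steps around Fasn showed smaller differences. Acly, which makes cytosolic acetyl-CoA from citrate, read 7705, 7271, 7179 and 7715 in control and 12207, 7608, 7181 and 7469.9 in Bcl6b knockdown. In Etv5 knockdown Acly read 7491, 7481, 7446 and 7109 and in Pou3f1 knockdown 7217, 7548, 7882 and 8274. Apart from Bcl6b knockdown replicate 1, the highest of all 16, the groups overlapped, and the means were 7467 ± 283 (SD, n = 4) in control and 7419.6 ± 217 (SD, n = 3) in Bcl6b knockdown without it. Its intervals without that array were -0.10 to 0.068 in Etv5, -0.1 to 0.082 in Bcl6b and -0.035 to 0.13 in Pou3f1 knockdown, and the Bcl6b difference with 16 arrays was 0.17 (adjusted p = 0.432). Acaca, the carboxylase that commits acetyl-CoA to fatty acids, read 942, 1004 and 994 on Bcl6b arrays 2 to 4, below the control range of 1026 to 1131 (-0.14, adjusted p = 0.0849), while the difference with replicate 1 was 0.031 (adjusted p = 0.906). In Pou3f1 knockdown it differed by -0.13 (adjusted p = 0.0715).

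Scd1 and Scd2 put the first double bond into saturated chains. Scd2 read 21590.3, 20974, 21611 and 21727 in control, 21123, 20439, 20774 and 22043 in Etv5, 16622, 20986, 20130.2 and 20406 in Bcl6b and 20306, 19889.5, 20268 and 23769 in Pou3f1 knockdown. One Pou3f1 array (replicate 4) was the highest of the 16 and Bcl6b knockdown replicate 1 the lowest, with the rest between 19889.5 and 22043. Means were 21476 ± 339.9 (SD, n = 4) in control, 20507 ± 437 (SD, n = 3) in Bcl6b knockdown without replicate 1 and 21058 ± 1817 (SD, n = 4) in Pou3f1 knockdown, with an interval of -0.17 to 0.034 for the Bcl6b difference (-0.14 with 16 arrays, adjusted p = 0.261). Scd1 had an interval of -0.13 to 0.032 in Bcl6b knockdown and -0.081 to 0.078 between Bcl6b and Pou3f1 knockdown.

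The elongases Elovl5 and Elovl6, which lengthen unsaturated and saturated chains, differed by -0.11 (adjusted p = 0.187) and -0.11 (adjusted p = 0.193) in Bcl6b knockdown without replicate 1, and by -0.16 and -0.034 with it (adjusted p = 0.168 and 0.82). In Etv5 knockdown Elovl6 differed by -0.14 (adjusted p = 0.0822). Acsl3, which activates fatty acids on the endoplasmic reticulum and on lipid droplets, read 2387, 2707, 2677 and 2730.1 in Bcl6b knockdown, all below the control range of 2742 to 2896 and the Pou3f1 range of 2882 to 3021. Between Bcl6b and Pou3f1 knockdown it differed by -0.17 with 16 arrays (adjusted p = 0.0813) and by -0.13 without replicate 1 (adjusted p = 0.0521), the smallest adjusted p-values of the fatty acid genes there. Without replicate 1, all 3 Bcl6b arrays lay below all control arrays for 4 of 10 fatty acid genes (Acaca, Fasn, Fads1 and Acsl3), against 19.3% of all tested genes. They lay below all Pou3f1 arrays for 3 of 10 (Fasn, Elovl6 and Acsl3), against 9.46%. On the chosen probe sets, all 10 fatty acid differences between these knockdowns were then below 0, with a median of -0.067 beside -0.022 over all genes, and with all 16 arrays 7 of 10 were, with a median of -0.017.

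Median centring of the arrays bore on the counts of Bcl6b knockdown, and quantile normalization less so. The array medians centred on were low, at 17.10, 16.67 and 16.62 units on Bcl6b arrays 2 to 4. All other arrays had medians of 15.64 to 16.59, so centring lowered those Bcl6b arrays against the rest. Quantile normalization called 345 genes in Bcl6b knockdown with 16 arrays (60% higher) and 1240 without replicate 1 (43.2% higher). Among called genes, 184 were higher and 174 lower in Bcl6b knockdown with 16 arrays, and with each array centred on its own median 126 of 743 were higher (17%). Without replicate 1, 454 of 1220 were higher (37.2%), and 9.61% of 2967 with median centring. In the latter fit 15 of the 32 genes were called, of which Insig2 alone was higher, and the median over all tested genes was -0.12 beside -0.14 for sterol enzymes and -0.19 for fatty acid genes. Between Bcl6b and Pou3f1 knockdown 321 of 570 called genes were higher without replicate 1 (56.3%), and with median centring 15.7% of 1327, with 11 of the 32 genes called lower. With 16 arrays that split was 161 of 243 and, centred, 35% of 331. Quantile normalization gave the same called genes among the 32 as the values as deposited, and in Pou3f1 knockdown without that array it moved the share of higher calls from 37.8% to 48.1%.

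The probe sets of these genes show how Bcl6b knockdown replicate 1 departs. The 32 genes had 75 probe sets, of which 65 were bright enough to test. On 29 of the 65 that array read lower than all other 15 arrays, and on 20 higher. Its gap to the mean of the other Bcl6b arrays ran from -5.10 to 1.32 on the log2 scale, and 13 of 65 were over 1 unit away. In 14 of the 20 genes with several tested probe sets, these lay on both sides. The 3 probe sets of Acly lay 0.71, -0.67 and -3.39 from the control mean on that array. For Acaca the probe sets lay 0.54 and -4.97 away, and for Scd2 -0.37, -4.08 and -0.21. The probe sets of the other 3 Bcl6b arrays stayed between -0.15 and 0.028 for Acly. A gene's value on that array therefore differed with the probe set chosen.

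**Figure D5:**
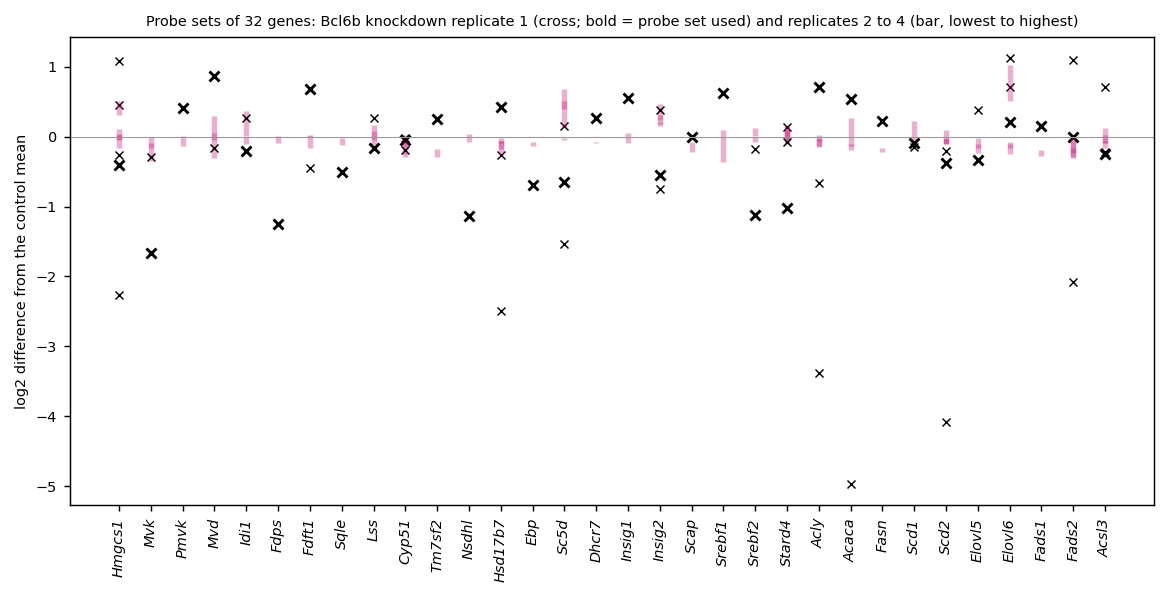
Distance from the control mean (log2) of each of the 65 tested probe sets, by gene; crosses are Bcl6b knockdown replicate 1 (bold for the probe set used) and bars run from the lowest to the highest of Bcl6b replicates 2 to 4. The bars of Acly stay between -0.15 and 0.028, while its crosses spread from 0.71 to -3.39.

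Some probe sets other than the chosen ones passed in a fit of all 20153 tested probe sets of named genes, a setting added after the data were seen. In that fit 1.35%, 3.1%, 1.45% and 2.75% of probe sets were called with 16 arrays, in the order Etv5, Bcl6b, Pou3f1 and Bcl6b against Pou3f1, and 8.1%, 11.5%, 9.6% and 6.56% without Bcl6b knockdown replicate 1. A second probe set of Sc5d, the sterol desaturase near the end of the pathway (1434520_at), rose by 0.56 in Etv5 (adjusted p = 0.000939), 0.37 in Bcl6b (adjusted p = 0.0143) and 0.40 in Pou3f1 knockdown (adjusted p = 0.0111) with 16 arrays. The chosen probe set of Sc5d gave 0.09, -0.19 and 0.099, none called, so that these probe sets of the gene disagree. The second one was also called without Bcl6b knockdown replicate 1 (0.56, 0.44 and 0.40), and with the mean over probe sets of each gene in the 15 arrays Sc5d was among the called genes in all 3 knockdowns. A second probe set of Insig2 (1417980_a_at) rose by 0.37 in Bcl6b (adjusted p = 0.0223) and 0.50 in Pou3f1 knockdown (adjusted p = 0.00422) with 16 arrays, and its Etv5 value was 0.30 (adjusted p = 0.105). Without Bcl6b knockdown replicate 1 all 3 Insig2 probe sets were called higher in all 3 knockdowns, by 0.16 to 0.50. A dim probe set of Elovl6 (1442656_at) was higher in Bcl6b knockdown by 0.85 (adjusted p = 0.0307) with 16 arrays, where the chosen one gave -0.034. Between Bcl6b and Pou3f1 knockdown this dim probe set was higher by 1.00 (adjusted p = 0.0124) and, without replicate 1, by 0.91 (adjusted p = 0.00797), where the chosen one gave 0.0025 and -0.077. Acsl3 was called lower in Bcl6b than in Pou3f1 knockdown in this fit without replicate 1 (-0.13, adjusted p = 0.0406), and a second probe set of Hmgcs1 higher in Pou3f1 knockdown (0.14, adjusted p = 0.036). The other 3 tested probe sets of Hmgcs1 were not called there, at 0.024 (adjusted p = 0.762), 0.12 (adjusted p = 0.0642) and 0.19 (adjusted p = 0.386), so the Hmgcs1 call rests on 2 of 5 probe sets.

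Of the neighbouring pathways, fatty acid oxidation held the most calls with 16 arrays. In Bcl6b knockdown 3 of its 12 tested genes fell and none rose, where 3.21% of all tested genes were called. These were Etfdh, which passes electrons from fatty acid oxidation to ubiquinone (-0.34, adjusted p = 0.000662), Crat, the carnitine acetyltransferase (-0.42, adjusted p = 0.0106), and Cpt1a, which admits fatty acids to mitochondria (-0.44, adjusted p = 0.0493). In Etv5 knockdown 1 of 12 fell, again Etfdh (-0.21, adjusted p = 0.0282), against 2.09% of all tested genes, and in Pou3f1 knockdown none passed. In the fit of 15 arrays 6 of 12 fell in Bcl6b knockdown, against 10.9% of all tested genes, led by Etfdh (-0.33), Cpt1a (-0.27), Crat (-0.40) and Acadvl (-0.18), which oxidises very long chains. In Pou3f1 knockdown 4 of 12 then fell and 1 rose, against 11.4%. Acadl (-0.18), Cpt1a (-0.19) and Etfdh (-0.19) fell, and Hadhb, a subunit of the trifunctional protein, rose (0.29, adjusted p = 0.0212). In Etv5 knockdown Cpt1a (-0.21) and Etfdh fell, 2 of 12 against 9.52%. The list medians in Bcl6b knockdown were -0.17 with 16 arrays and -0.15 without replicate 1, beside -0.010 and -0.042 over all tested genes. None of the 12 passed between Bcl6b and Pou3f1 knockdown in either fit.

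With 16 arrays the other 4 neighbouring lists held 1 call in all, that of Osbpl9, an oxysterol-binding protein, in Pou3f1 knockdown (-0.16, adjusted p = 0.0332). The calls that follow are from the fit of 15 arrays, where 9.52% of all tested genes were called in Etv5, 10.9% in Bcl6b and 11.4% in Pou3f1 knockdown and 5.11% between the last 2. Of 11 tested genes of sterol transport and storage, 2 were called in Etv5, 2 in Bcl6b and 4 in Pou3f1 knockdown. Mylip, a ubiquitin ligase for lipoprotein receptors, rose in all 3 (0.36, 0.39 and 0.32). Lipa, the lysosomal lipase that frees cholesterol, fell in Etv5 (-0.15) and Pou3f1 knockdown (-0.27) and was higher in Bcl6b than in Pou3f1 knockdown (0.17). Scarb1, a lipoprotein receptor, fell in Bcl6b knockdown (-0.23), and Osbpl9 and Abca1, a cholesterol exporter (-0.12), fell in Pou3f1 knockdown.

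Of 16 tested genes of other fatty acid synthesis and activation, none was called in Etv5, 2 in Bcl6b and 3 in Pou3f1 knockdown. Hacd3, a dehydratase of chain elongation, fell in Bcl6b knockdown (-0.19, adjusted p = 0.00573). Gpam, which starts glycerolipid synthesis, fell in Pou3f1 (-0.44, adjusted p = 1.63e-05) and Bcl6b knockdown (-0.20, adjusted p = 0.0276) and was higher in Bcl6b than in Pou3f1 knockdown (0.25). Acsl5, a fatty acid activator, fell in Pou3f1 knockdown (-0.18, adjusted p = 0.00335) and was also higher in Bcl6b than in Pou3f1 knockdown (0.16). Acss2, which makes acetyl-CoA from acetate, rose in Pou3f1 knockdown (0.29, adjusted p = 0.0254). Of 8 tested genes of SREBP processing, 2 were called in Etv5, 3 in Bcl6b and 3 in Pou3f1 knockdown. Fbxw7, which marks nuclear SREBP for decay, fell in all 3 (-0.15, -0.16 and -0.19). Sec24a, a coat protein of the vesicles that carry Scap, rose in Etv5 (0.33) and Pou3f1 knockdown (0.41), while Sec24c fell in Bcl6b (-0.20) and Pou3f1 knockdown (-0.13). Rnf139, a ubiquitin ligase of the endoplasmic reticulum, fell in Bcl6b knockdown (-0.15). Of 9 tested genes of the isoprenoid branch, Fnta, a prenyltransferase subunit, was the only call, in Bcl6b knockdown (-0.13, adjusted p = 0.0439).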

How the data were processed

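Total RNA of 16 samples was labelled with biotin and hybridised to Affymetrix mouse 430 2.0 arrays, after cDNA synthesis from a poly(T) primer, per the labels' protocols. The values are linear intensities summarised by the authors to 1 per probe set and array, as deposited, from 1.66 to 71511. The tools listed per the submitters' processing notes are Affymetrix Expression Console 1.1, Partek 6.4, MAS5 and GCRMA; which of them gave these intensities, and with what scaling and filters, was not given in the sources used here. Their precision is limited by the number of arrays.

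Here 1 was added to each value before taking log2, which understates differences of dim genes. Of 45037 probe sets, 34945 were paired with 1 gene, and the 1 with the highest mean was kept for each of 18193 genes. Genes above the median of the array on fewer than 4 arrays were left out of the tests. Groups were compared in 1 fit of 4 groups with limma 3.58.1 in R 4.3.3 (lmFit, eBayes with an intensity trend; two-sided; Benjamini-Hochberg adjustment over all 11145 genes; called at an adjusted p under 0.05; 95% intervals), checked on simulated data. All p-values in the text are from limma. Per-array values are given for genes called in any comparison, with or without Bcl6b knockdown replicate 1, and for the 2 genes of each class with the highest mean. Of each neighbouring list, up to 4 called genes are named per comparison, smallest adjusted p first. The genes, lists, classes and settings were chosen with earlier results of these data known, so no list was tested as a set. Alternatives were the scaling, pseudocount, filter, probe set, array weights, trend, groups in the fit, replicate block and each array left out; the fit of all probe sets and the second changes to the 15 arrays were added after the data were seen. Promoter windows came from RefSeq (GRCm38.p6), without those of Fdps, Fdft1, Sqle, Stard4, Scd1, Scd2 and Fads1.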

Additional observations from a re-analysis of the deposited data

Results flagged for a closer look

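Of 128 groups of 4 arrays (32 genes in 4 groups), 20 held an array set far from the other 3, by a test that chance alone passes in about 1 group in 20. Bcl6b knockdown replicate 1 made 14 of the 20. It read low for the sterol enzymes Mvk (60.8, with the next array at 175), Fdps (1353 and 3041), Nsdhl (749.6 and 1571), Ebp (1704 and 2494) and Sc5d (797 and 1212), for Insig2 (1520.2 and 2521) and Srebf2 (540.4 and 1173), and for Acsl3 (2387 and 2677). It read high for Mvd (338 and 192), Hsd17b7 (788 and 563), Dhcr7 (1016 and 795), Acly (12207 and 7608), Acaca (1571 and 1004) and Fasn (3412 and 2596). The other 6 were single arrays. Etv5 knockdown replicate 4 was low for Sc5d (1246) and Acly (7109). Control replicate 4 was high for Hmgcs1 (10781, with the next array at 10253) and control replicate 1 low for Dhcr7 (814). Pou3f1 knockdown replicate 4 was high for Scd2 (23769) and replicate 1 for Elovl6 (762). Hmgcs1 kept its call in Pou3f1 knockdown in 15 of 15 fits that left out Bcl6b knockdown replicate 1 and 1 more array, control replicate 4 among them.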

How the results depend on the processing

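With 16 arrays, the genes called numbered 154 of 11145 in Etv5 knockdown with median centring, 1662 with array weights and 996 in a fit of the groups compared alone. In Bcl6b knockdown these were 743, 2082 and 62, in Pou3f1 knockdown 1744 with weights and 1140 with the groups compared, and between Bcl6b and Pou3f1 knockdown 908 and 74. Of the 32 genes, weights called 2, 5, 3 and 4 in that order, the groups compared called 2 in Etv5 and 2 in Pou3f1 knockdown, and median centring called 1 in Bcl6b knockdown and 4 between the knockdowns. The sterol median in Bcl6b knockdown was -0.031 with weights, beside -0.035 over all genes, and so not below it. The fatty acid median in Pou3f1 knockdown was -0.036 with quantile normalization and -0.010 with the mean over probe sets, which gave -0.10 between the knockdowns.

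Leaving out 1 array gave 128 to 1061 genes in Etv5, 191 to 1220 in Bcl6b and 129 to 1268 in Pou3f1 knockdown and 166 to 570 between the knockdowns, and 0 to 2, 0 to 3, 0 to 2 and 0 to 2 of the 32 genes; each highest count was without Bcl6b knockdown replicate 1. The Pou3f1 fatty acid median was -0.066 to -0.034. The Fdft1 difference between the knockdowns ran from -0.17 without that array to 0.11 and was 0.014 with all 16. In the fit without it, median centring called 1 (Etv5), 15 (Bcl6b) and 11 genes (between the knockdowns) and weights called 5 and 5 in the last 2. One more array left out gave 1 to 3 in Etv5, 2 to 4 in Pou3f1 and 0 to 3 between the knockdowns. The cause of these changes was not tested. With the replicate number as a block, 177, 277, 195 and 208 genes and 0 of the 32 were called with 16 arrays. Whether the numbers pair the samples could not be told from the correlations, which were weak. Of 24 same-number pairs 5 correlated over 0.1 (-0.26 to 0.20), and 6 of 16 arrays correlated best with their own number.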
